A study of Mus musculus with 81 samples.

Results

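The genes described here are 41 type I interferon-stimulated genes measured by bulk RNA-seq in sorted mouse brain cells of the microglial gate, before and during a cuprizone diet. The 41 names were chosen with earlier results of these data known. A gene was then taken when its symbol in the annotation of the deposited count tables matched one of them, a step that used no measured values. All 41 were found among the 25124 genes of the tables, and all 41 passed the low-count filter in each of the 5 experiments. The study holds 81 libraries in 28 groups. It asks how the diet, the surface markers CD229, CD11c and Clec7a, and the loss of Trem2, Mef2a or Egr2 change these cells.

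Type I interferons bind a receptor of the subunits IFNAR1 and IFNAR2. The kinases JAK1 and TYK2 then phosphorylate STAT2, which joins IRF9 in a complex that binds interferon-stimulated response elements in the promoters of antiviral genes. IRF7, itself interferon-induced, sustains further interferon production. Microglia, the resident macrophages of the brain, are known to raise such genes in ageing, injury and demyelination, and dietary cuprizone, which binds copper, leads to the death of oligodendrocytes and the loss of myelin.

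All mice were adult C57BL/6 males. The deletion groups were Trem2KO, Cx3cr1CreERT2/WT::Mef2afl/fl (Mef2aKO below) and Cx3cr1CreERT2/WT::Egr2fl/fl (Egr2KO below). Their controls were WT mice for Trem2KO and Cx3cr1CreERT2/WT mice (Cre below), which carry the Cre allele too, for the other deletions. Cx3cr1 drives Cre in microglia and in other macrophages. The time and dose of an inducing drug are not given in the sources used here. Mice ate 0.2% cuprizone for 4 weeks (Trem2KO and WT), 5 weeks (Mef2aKO and Cre, and undivided Egr2KO and Cre cells) or 6 weeks (Egr2KO and Cre), and baseline mice of each genotype ate a regular diet. Baseline cells and the undivided cells were gated as CD44 low, CD45 low and CD11b low. At 4 and 6 weeks the cells were split into CD229-negative CD11c-negative, CD229-positive CD11c-negative and CD229-positive CD11c-positive fractions, and no Trem2KO library of the last fraction was analysed here. At 5 weeks the lowest fraction lacked Clec7a, CD229 and CD11c, and the markers were then gained in the order Clec7a, CD229, CD11c. Mef2aKO baseline cells were also split into CD229-negative and CD229-positive fractions. Most groups had 3 libraries, 2 Trem2KO groups had 4 and 5 groups had 2. Each library came from the pooled brains of 2 to 6 mice, so an SD is a spread between pools.

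Total counts ran from 4387075 to 13972985 per library. The 7 canonical microglial markers summed to between 5150 and 14100 CPM (counts scaled per 1000000 reads counted, on library sizes scaled by the trimmed mean of M-values), and none was at 0 in any group. Trem2 was at 88.5 to 166 CPM in Trem2KO libraries against 346 to 714 CPM in WT libraries. The Mef2a count, summed over the gene, was not lower in Mef2aKO libraries at 5 weeks, and such a sum cannot check the deletion of an exon. Egr2 was at 22.4, 32.5 and 42.1 CPM in Egr2KO CD229-positive cells at 6 weeks, against 32.3, 57.1 and 60.4 CPM in Cre cells (log2 fold change -0.62, adjusted p = 0.103 in edgeR's quasi-likelihood test). By the same test, Egr2 averaged 10.8 against 19.3 CPM in CD229-negative cells (-0.88, adjusted p = 0.286). In CD11c-positive cells it averaged 81 against 109 CPM (-0.43, adjusted p = 0.487). In the undivided cells at 5 weeks it averaged 22.1 against 68.2 CPM (-1.61, adjusted p = 3.94e-05). The third WT CD229-negative library at 4 weeks stood apart from its 2 partners, with 167 CPM of Itgax, the CD11c gene, against 87.9 and 89.2 CPM. Counts of members called that rest on it are given without it too, while values of single genes mostly include it.

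Promoter sequence was read for the members because their shared control is thought to act through a short element. The RefSeq promoter table (build GRCm38.p6, 250 bases before to 50 after the start of each gene) held 31 of the 41 members and 27025 genes in all. A motif of GAAA, any 2 bases and GAAA, searched on both strands and counted with overlaps, lay in the window of 18 members (58.1%) and of 1079 genes in the table (3.99%). The longer form that ends in CT, which contains the shorter motif, lay in 11 members (35.5%) and 82 genes (0.303%). The STAT-type motif TTCNNNGAA lay in 6 members (19.4%) and 2582 genes (9.55%). Dhx58, Mx2, Parp14, Parp9, Usp18, Ifi27l2a, Zbp1, Mx1, Rtp4 and Oas2 were not in the table. The windows of 6 genes are shown because the genes behave differently in the results: Ifit3, Bst2 and Cxcl10 rose in all 6 diet comparisons and Isg15 in 5 of 6, while Gbp7 and Gbp3 rose in none. Capitals mark the bases covered by the shorter motif or its reverse complement, and sequences read 5′ to 3′ on the strand of the gene. Each stretch keeps 15 bases on either side.
Isg15 (chr4:156200860-156200911, minus strand, GRCm38.p6): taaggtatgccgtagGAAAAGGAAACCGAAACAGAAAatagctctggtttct
Ifit3 (chr19:34583358-34583431, plus strand): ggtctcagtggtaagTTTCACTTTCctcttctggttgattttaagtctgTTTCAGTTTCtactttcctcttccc
Bst2 (chr8:71537572-71537617, minus strand): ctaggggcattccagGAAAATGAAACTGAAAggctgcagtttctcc
Cxcl10 (chr5:92349078-92349117, minus strand): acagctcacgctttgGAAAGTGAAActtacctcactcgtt
Gbp7 (chr3:142530268-142530307, plus strand): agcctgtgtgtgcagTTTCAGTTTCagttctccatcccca
Gbp3 (chr3:142559984-142560029, plus strand): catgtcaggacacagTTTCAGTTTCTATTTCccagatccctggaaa
Isg15 held 3 overlapping matches, Ifit3, Bst2 and Gbp3 held 2 each, and Cxcl10 and Gbp7 held 1 each. Gbp7 and Gbp3 thus held a match and rose in no diet comparison. Only windows with a match are shown, so they cannot tell whether a match goes with a rise. Irf7 and Oasl2, which rose in WT cells at 4 weeks, had no match in their windows. A match is a string of letters, not a measured binding site.

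At baseline the members were spread widely in level. In WT baseline cells the members with most counts per kilobase of transcript were Trim30a (44.0 CPM per kilobase), a ubiquitin ligase, Slfn8 (38.0) of the Schlafen family, Bst2 (37.7), which tethers budding virus to the cell membrane, and Irf9 (35.6). Ifi44 (0.14 CPM per kilobase) and Oas3 (0.158) were lowest. The order was different in WT CD229-positive cells at 4 weeks, where Ifi27l2a, an interferon-induced membrane protein gene, led with 199 CPM per kilobase, followed by Bst2 (171), Trim30a (82.3), Irf7 (74.0) and Oasl2 (62.5), and where Gbp3 (3.55) and Gbp7 (4.33) were lowest. Irf7 ranked 20 of 41 in WT baseline cells, 10 in CD229-negative cells and 4 in both CD229-positive fractions. Gbp7 ranked 9 at baseline and 40 in CD229-positive CD11c-negative cells.

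**Figure D1:**
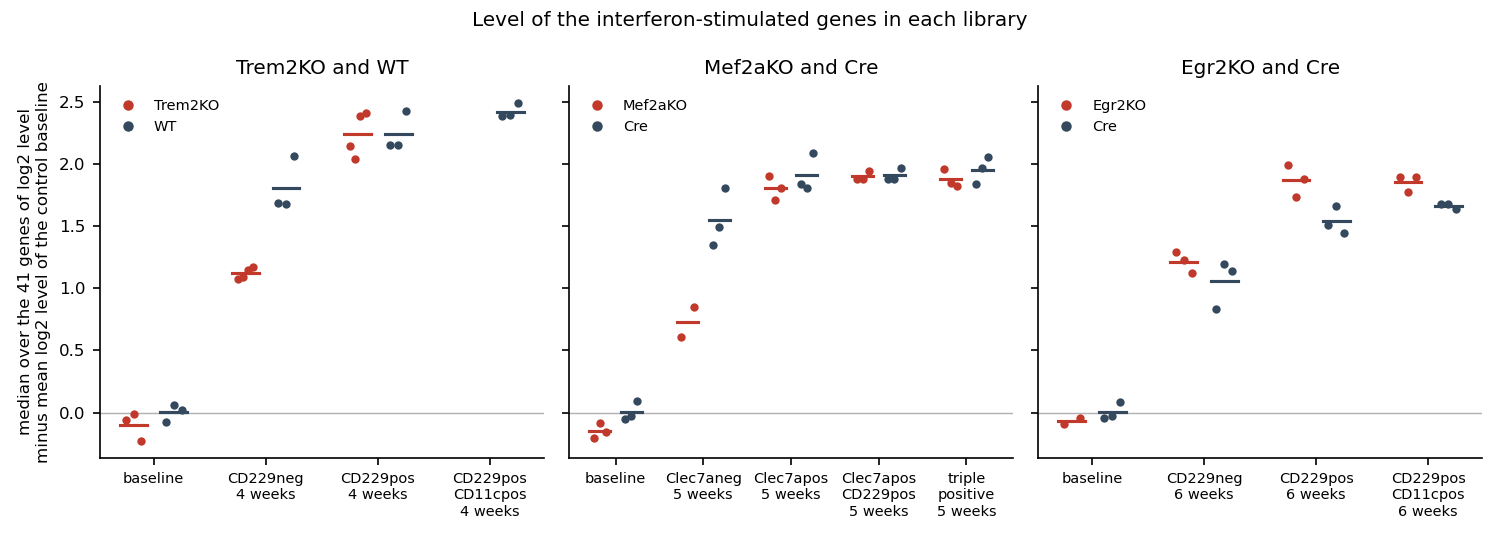
Median over the 41 genes of log2(CPM + 1) minus the mean of the control baseline libraries, one point per library (vertical axis), by experiment and group (horizontal axis), with knockout groups left of their controls. Every cuprizone library of the sorted fractions lies above every baseline library of its experiment; the Trem2KO CD229-negative and Mef2aKO Clec7a-negative libraries lie lower than the control libraries of the same fraction.

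Cuprizone for 4 weeks raised almost the whole group of genes in WT cells that had gained neither CD229 nor CD11c. Against WT baseline, 39 of the 41 members rose, 1 fell and 1 was not called (adjusted p under 0.05, edgeR's quasi-likelihood test, Benjamini-Hochberg adjustment over all 12647 genes tested). Of all genes tested, 18.8% were higher and 11.7% lower. The median log2 fold change of the members was 1.85, while the median of all genes was near 0. In bulk samples, fewer cells of a type and less RNA per cell cannot be told apart, and this holds for every difference below. The baseline cells of the diet comparisons were not split by CD229, CD11c or Clec7a. In every diet comparison, diet and gate therefore cannot be told apart.

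The antiviral synthetases moved most as a family. All 5 OAS genes, which make or resemble the enzymes that activate RNase L, rose with a median log2 fold change of 3.07. Oasl2 was at 83.4, 85.7 and 124 CPM in WT CD229-negative cells on cuprizone, against 5.72, 10.2 and 9.51 CPM in WT baseline cells. The groups did not overlap, and the log2 fold change was 3.52 ± 0.18 (SE, adjusted p = 1.13e-14). Oas3 had a log2 fold change of 3.74 ± 0.41 from a low baseline. All 4 IFIT genes, whose proteins bind viral RNA lacking normal caps, rose with a median of 2.62, and Ifit3 rose by 2.46 ± 0.18 on the log2 scale. Rsad2, the antiviral enzyme viperin, and its neighbour Cmpk2 rose as well.

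Among the regulators, Irf7 was at 60.3, 58 and 87.7 CPM in WT CD229-negative cells, against 11.1, 11.4 and 10.7 CPM at baseline (log2 fold change 2.63 ± 0.16, adjusted p = 7.43e-13). Stat2 rose by 1.00 ± 0.09 on the log2 scale and Irf9 rose too. The ubiquitin-like modifier Isg15 was at 13.5, 12 and 19 CPM on the diet, against 2.86, 2.64 and 3.26 CPM at baseline (log2 fold change 2.35 ± 0.23, adjusted p = 1.15e-08). Usp18, which removes ISG15 from proteins and dampens the receptor, rose by 1.85 ± 0.17. The chemokine Cxcl10, which draws T cells, was at 17.2, 17.6 and 27.7 CPM, against 3.65, 2.72 and 1.63 CPM (log2 fold change 2.97 ± 0.26). The third library was the highest of the 3 for each of these genes, and without it 39 members were called, against 40 with it.

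The largest rise among the 8 other effectors, all of which rose, was that of Ifi27l2a. It was at 33.8, 34.6 and 46 CPM on cuprizone, against 1.77, 2.11 and 4.03 CPM at baseline (log2 fold change 3.85 ± 0.23, adjusted p = 2.73e-13). Ifi44 had 3.76 ± 0.47, but was at 0.493, 0.703 and 0 CPM in the baseline libraries, so its size is uncertain. Bst2 rose by 1.44 ± 0.11. The 4 sensors and kinase (Ifih1, Dhx58, Zbp1 and Eif2ak2) and the 3 PARP genes all rose, with smaller medians of 1.18 and 0.58. The guanylate-binding proteins, GTPases that attack vacuoles of pathogens and are also induced by interferon gamma, went apart from the rest. Gbp2 rose, Gbp3 had a log2 fold change of 0.11 ± 0.12 (adjusted p = 0.517), and Gbp7 fell by 0.60 ± 0.10 on the log2 scale (adjusted p = 2.11e-05).

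**Figure D2:**
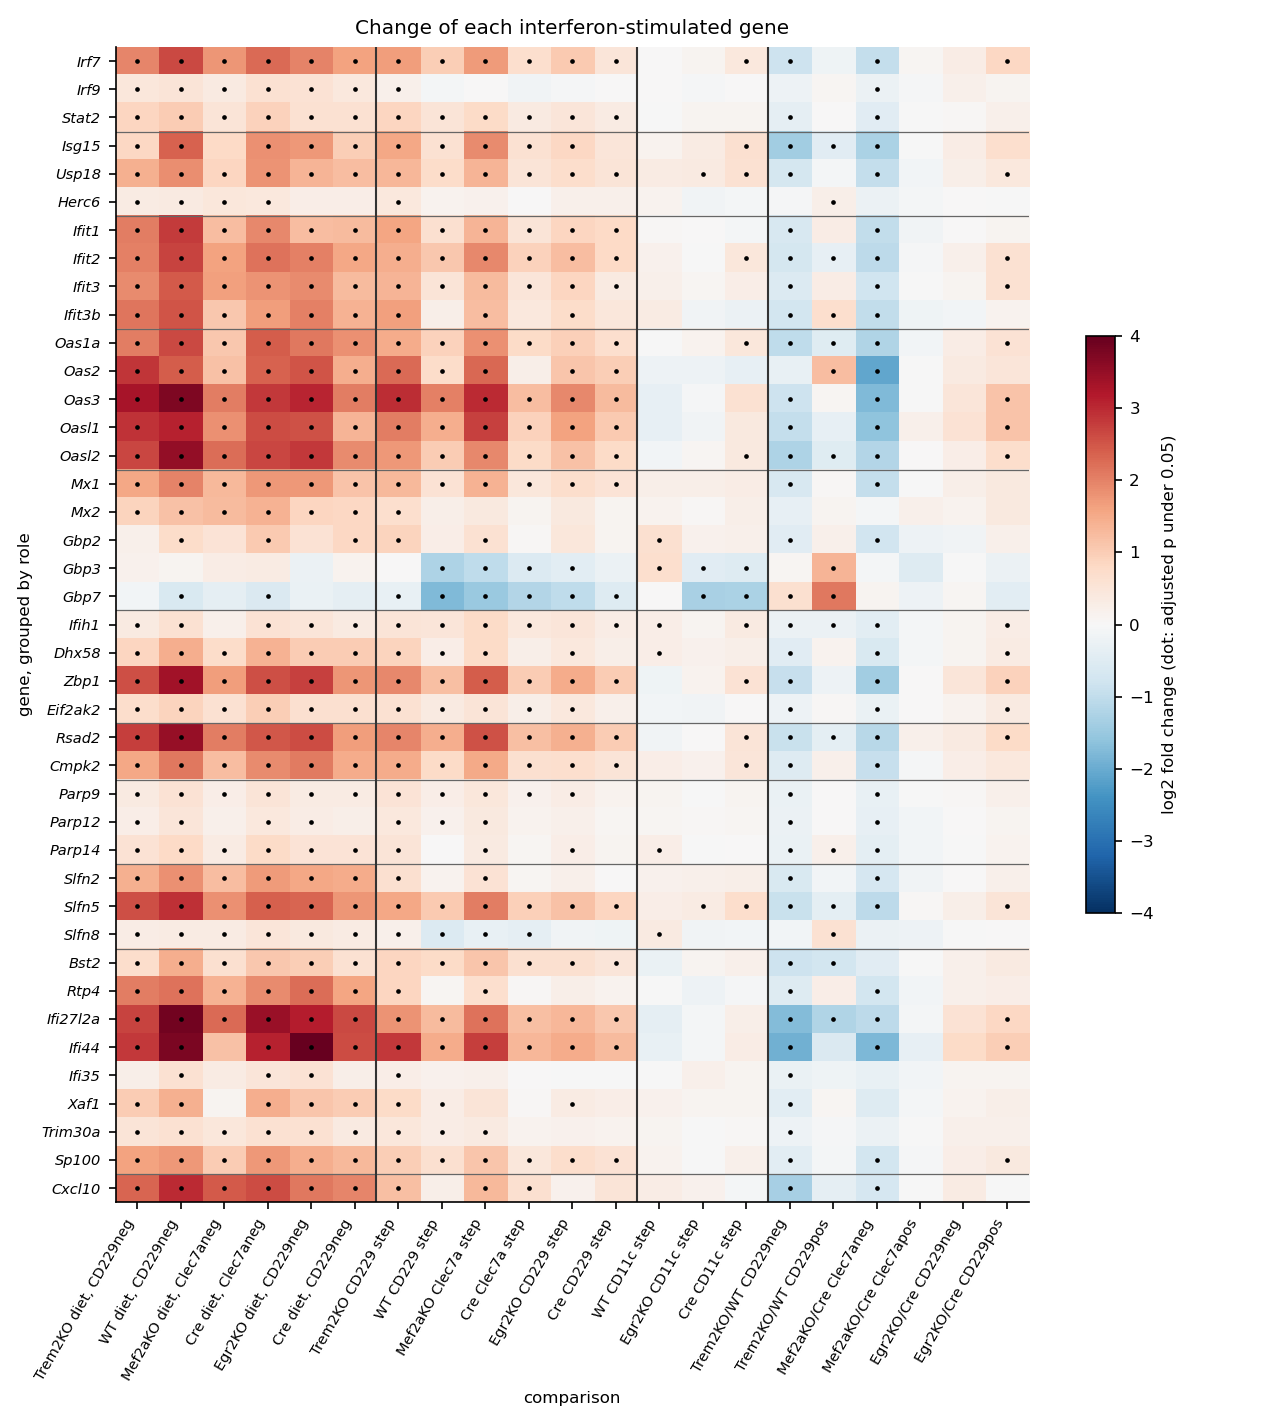
Log2 fold change of each of the 41 genes (vertical axis, grouped by role) in 21 comparisons (horizontal axis); red is higher and blue lower on the diet, with the gained marker or in the knockout, and a dot marks adjusted p under 0.05. The diet columns are red in nearly every row, the Trem2KO CD229-negative and Mef2aKO Clec7a-negative columns are mostly blue, and Gbp7 is lower at each CD229 and Clec7a step drawn, while most other genes are higher.

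Most members were higher in marker-negative cells on the diet than in baseline cells, in every genotype and at every time tested. In Cre cells at 5 weeks, Clec7a-negative cells against baseline, 39 members rose and 1 fell, with a median log2 fold change of 1.73 (15.5% of genes higher, 13.3% lower). In Cre CD229-negative cells at 6 weeks 36 rose and 0 fell, with a median of 1.24 (5.03% higher, 0.827% lower). In the knockouts 37 rose in Trem2KO cells (median 1.43, 5.42% of genes higher and 1.86% lower), 32 in Mef2aKO cells (median 1.07, 5.01% and 2.84%) and 37 in Egr2KO cells (median 1.45, 6.52% and 1.71%), and in these 3 comparisons 0 fell. Gbp7 fell by 0.57 ± 0.11 on the log2 scale in Cre cells at 5 weeks (adjusted p = 9.97e-05). It had -0.35 ± 0.11 in Cre cells at 6 weeks (adjusted p = 0.0699) and -0.11 ± 0.09 in Trem2KO cells (adjusted p = 0.557). The 5-week and 6-week comparisons in Cre cells share their 3 baseline libraries, and fractions and library types differ between the times, so no difference between the times was tested. At 6 weeks 2 of the 3 libraries in each fraction carry a PE150 tag in their labels and no Cre baseline library does. With that tag as a covariate 37 members were called in Cre cells.

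The 3 members that led the rise were the same at each time. Ifi27l2a, Ifi44 and Oas3 had the 3 highest log2 fold changes in the controls at 4, 5 and 6 weeks: 3.85, 3.76 and 3.74 at 4 weeks, 3.44, 3.09 and 2.83 at 5 weeks, and 2.63, 2.60 and 2.05 at 6 weeks. Ifi44 and Oas3 rested on few reads at baseline, so their values are imprecise, and the 5-week and 6-week values share their Cre baseline libraries. The change of Isg15 on the diet was tested between genotypes. In Mef2aKO cells it was at 5.9 and 3.99 CPM on the diet, against 3.61, 2.9 and 2.05 CPM at baseline, with a log2 fold change of 0.79 ± 0.37 that did not pass (adjusted p = 0.207); its difference from the change in Cre cells did not pass either (-1.05 ± 0.46, adjusted p = 0.348). In Trem2KO cells it was at 4.67, 4.36, 5.51 and 8.38 CPM on the diet, against 2.75, 3.1 and 3.8 CPM (log2 fold change 0.82 ± 0.25, adjusted p = 0.0401), and there the difference from WT passed (-1.53 ± 0.35, adjusted p = 0.0111).

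Gaining CD229 went with a further rise of most members at 4 weeks. In WT CD229-positive CD11c-negative cells against CD229-negative cells, 28 members were higher and 3 lower, with a median log2 fold change of 0.50 (24.6% of genes higher, 24.2% lower). Without the third CD229-negative library 35 members were called, and without the first 26, against 31 with all libraries. All 5 OAS genes were higher, among them Oas3 (2.01 ± 0.24) and Oasl2, which was at 193, 200 and 193 CPM in CD229-positive cells, against 83.4, 85.7 and 124 CPM in CD229-negative cells (1.00 ± 0.13, adjusted p = 7.16e-07). Irf7 was at 130, 138 and 142 CPM, against 60.3, 58 and 87.7 CPM (0.99 ± 0.13, adjusted p = 5.89e-07). Cxcl10 was at 23.5, 24.8 and 25.2 CPM, against 17.2, 17.6 and 27.7 CPM. Its groups overlapped (log2 fold change 0.23, adjusted p = 0.366), and without the third CD229-negative library the value was 0.52 (adjusted p = 0.0463). Marker lists moved at this step too. The 7 microglial markers summed to 8100 to 9620 CPM in CD229-positive against 10900 to 12800 CPM in CD229-negative cells. The 4 plasmacytoid markers summed to 91.8 to 105 CPM against 26.7 to 41.6 CPM, nearly all of it Pacsin1. The 5 endothelial markers summed to 266 to 284 CPM against 87.1 to 117 CPM; of these Flt1 was higher, Pecam1 and Cdh5 were lower, and Cldn5 and Esam were at 0 in CD229-positive cells. The part of these lists in the result was not tested.

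Gbp7, Gbp3 and Slfn8 fell at this step. Gbp7 was at 23.5, 22 and 27.4 CPM in WT CD229-positive cells, against 91, 88.1 and 70.2 CPM in CD229-negative cells (log2 fold change -1.76 ± 0.11, adjusted p = 1.17e-12). Gbp3 was at 9.27, 8.36 and 11.4 CPM, against 23.1, 24.2 and 22.5 CPM (-1.24 ± 0.13, adjusted p = 1.25e-08). Slfn8 was at 134, 129 and 137 CPM, against 191, 195 and 194 CPM (-0.54 ± 0.07). No libraries of the 2 fractions overlapped for these 3 genes. Gbp3 and Slfn8 turned upward again where CD11c was gained: in WT CD229-positive CD11c-positive cells Gbp3 was at 17.2, 14.9 and 15 CPM and Slfn8 at 172, 180 and 164 CPM (0.68 ± 0.14 and 0.37 ± 0.07 against CD11c-negative cells). That step changed 6 members, all higher (median 0.10, 11.8% of genes higher and 11.5% lower), and Gbp7 stayed at 27.8, 26.3 and 20.1 CPM. Without the second CD11c-positive library 3 members were called at the CD11c step, and 12 were called with a block nested in genotype and diet.

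**Figure D3:**
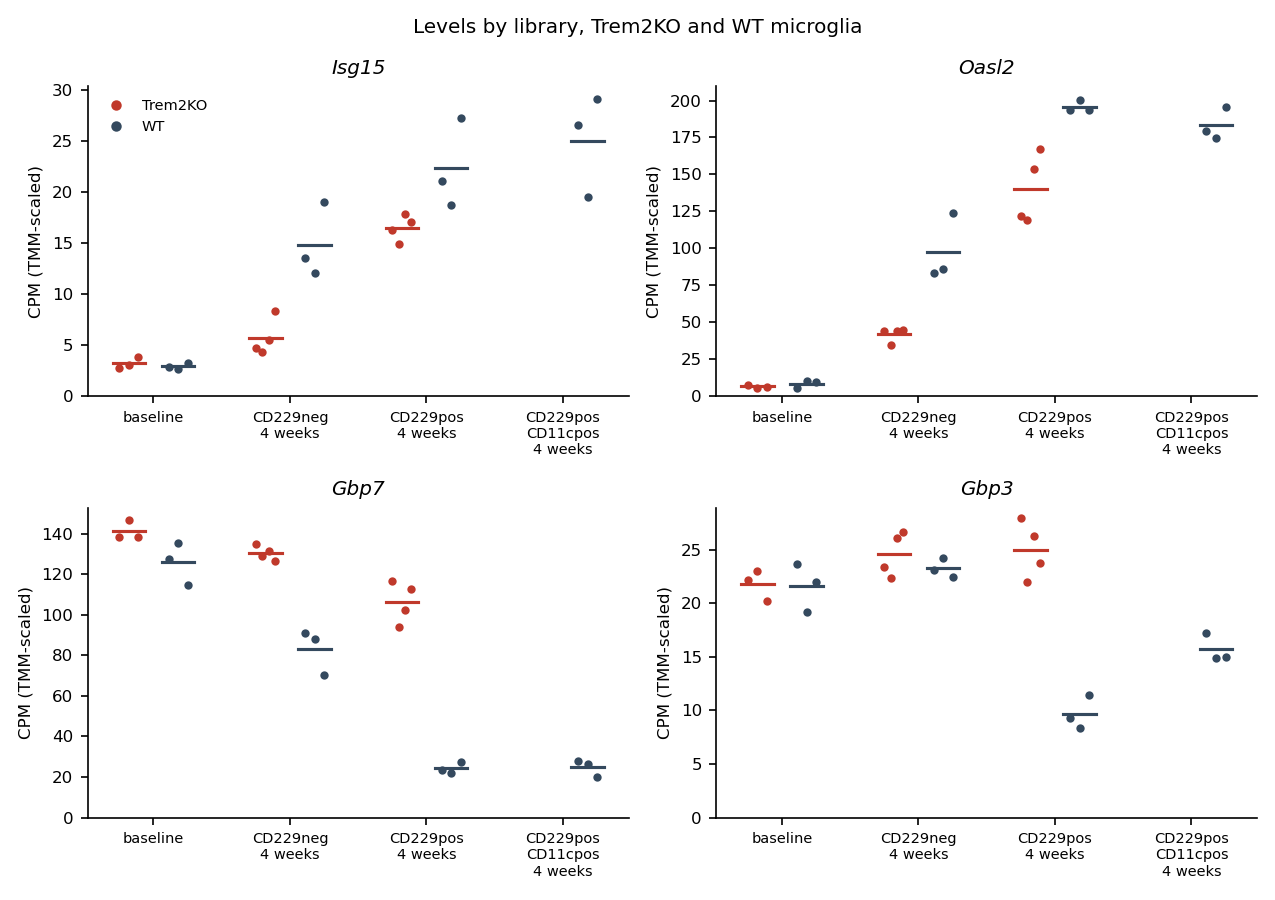
CPM (linear axes from 0) for Isg15, Oasl2, Gbp7 and Gbp3 in each 4-week library and the baseline libraries, with Trem2KO (red) left of WT (dark) and a bar at each group mean. Isg15 and Oasl2 climb from baseline through CD229-negative to CD229-positive cells in both genotypes; at the CD229 step Gbp7 falls by 0.29 on the log2 scale in Trem2KO and by 1.76 in WT, and Gbp3 differs by 0.03 in Trem2KO and falls by 1.24 in WT.

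Of the marker steps at 5 weeks, the step at which Clec7a was gained had the most members called. In Cre cells, Clec7a-positive CD229-negative cells against Clec7a-negative cells, 24 members were higher and 3 lower, with a median of 0.43 (20.9% of genes higher, 17% lower). Rsad2 (1.20 ± 0.13), Oasl2 (0.75 ± 0.12) and Irf7 (0.68 ± 0.14) were among those higher. Gbp7 was at 39.5, 36.1 and 37.4 CPM in Clec7a-positive cells, against 101, 76.2 and 77.8 CPM in Clec7a-negative cells (-1.17 ± 0.12, adjusted p = 7.58e-10), and Gbp3 (-0.56) and Slfn8 (-0.35) were lower as well. All 8 border macrophage markers were higher at this step (sums of 106 to 191 CPM in Clec7a-positive against 22.1 to 32.8 CPM in Clec7a-negative cells), and their part in the result was not tested. At the next step, CD229, 1 member was higher, Oas3 (0.62 ± 0.17, adjusted p = 0.0261), and 2 were lower (2.1% of genes higher, 3.43% lower). Gbp7 was at 19.7, 18.4 and 21.1 CPM in CD229-positive cells (-0.93 ± 0.13). At the CD11c step 5 members were higher and 0 lower (6.85% and 7.25% of genes), led by Gbp2 (0.67 ± 0.15). The CD229 step kept 1 call without the second or the third Clec7a-positive CD229-negative library or the first CD229-positive library, and the CD11c step 3 without the third triple-positive library. A block nested in genotype and diet called 11 members at the CD229 step and 9 at the CD11c step.

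At 6 weeks the CD229 step in Cre cells raised 21 members and lowered 1, Gbp7 (median 0.46, 10.7% of genes higher, 6.54% lower). All 5 OAS genes were higher again, with a median of 0.97. So were 7 of the 8 border macrophage markers, whose sums were 149 to 380 CPM in CD229-positive against 66.8 to 98 CPM in CD229-negative cells; their part was not tested. Gbp7 was at 79.7, 69.3 and 64.7 CPM in CD229-positive cells, against 106, 107 and 91.1 CPM in CD229-negative cells (-0.51 ± 0.12, adjusted p = 0.00223). Its larger drop came at the CD11c step, to 24.4, 29.8 and 32.5 CPM in CD11c-positive cells (-1.28 ± 0.12, adjusted p = 4.54e-08). That step raised 11 members, among them Slfn5 (0.69 ± 0.09), Isg15 (0.65 ± 0.20) and Usp18 (0.60 ± 0.10), and lowered Gbp3 and Gbp7 (8.64% of genes higher, 8.53% lower). Same-numbered libraries deviate together at this step, and the fit with a block nested in genotype and diet called 20 members in all against 13 without it.

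In Trem2KO mice, which lack a lipid-sensing receptor that microglia need for their response to myelin debris, no member passed the test against WT at baseline. Of the 41 members 0 were called, 5 had an unadjusted p under 0.05, DESeq2 called 0 too, and 0.577% of all genes were called in either direction by edgeR. Throughout, shares of genes called are at the adjusted threshold of edgeR's main fit. They cannot be set against counts of members at an unadjusted p, by DESeq2 or in another alternative fit. The share of all genes is not given at an unadjusted p under 0.05 or for those other fits. Without the first WT baseline library 1 member was called. Isg15, at 2.75, 3.1 and 3.8 CPM in Trem2KO baseline cells, against 2.86, 2.64 and 3.26 CPM in WT baseline cells, overlapped between the genotypes.

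On cuprizone the picture was different in CD229-negative cells. There 34 members were lower in Trem2KO than in WT cells and 1, Gbp7, was higher, with a median log2 fold change of -0.53 (7.23% of genes higher, 13.1% lower). The lower members included all 4 IFIT genes, 4 of 5 OAS genes, all 4 sensors and kinase, all 3 PARP genes, Irf7, Stat2, Isg15, Usp18, Cxcl10 and all 8 other effectors. Isg15 was at 4.67, 4.36, 5.51 and 8.38 CPM in Trem2KO cells, against 13.5, 12 and 19 CPM in WT cells (-1.39 ± 0.20, adjusted p = 1.05e-05). Ifi27l2a was at 9.13, 8.73, 14.4 and 13.8 CPM, against 33.8, 34.6 and 46 CPM (-1.74 ± 0.17, adjusted p = 9.44e-09). The libraries of the 2 genotypes did not overlap for either gene.

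Oasl2 was at 44.1, 34.8, 44.2 and 44.8 CPM in Trem2KO CD229-negative cells, against 83.4, 85.7 and 124 CPM in WT cells (-1.22 ± 0.13, adjusted p = 1.05e-07). Cxcl10 was at 7.06, 9.49, 8.9 and 7.77 CPM, against 17.2, 17.6 and 27.7 CPM (-1.33 ± 0.21). Oas2 did not follow its family: it was at 57.3, 45.8, 61.4 and 56.2 CPM in Trem2KO cells, against 51.7, 57.6 and 94.2 CPM in WT cells, and the groups overlapped. Gbp7 was at 135, 129, 132 and 126 CPM, against 91, 88.1 and 70.2 CPM (0.65 ± 0.09, adjusted p = 6.42e-06). Without the third WT CD229-negative library the count of members called fell to 21, against 35 with it.

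Other genes differed between the genotypes in this gate too. Clec7a was at 29.6, 32.5, 25.5 and 29.5 CPM in Trem2KO CD229-negative cells, against 218, 225 and 330 CPM in WT cells. The 8 border macrophage markers summed to 20.3 to 31.9 CPM in Trem2KO cells against 62.4 to 193 CPM in WT cells. The 4 markers listed for plasmacytoid dendritic cells summed to 8.73 to 12.6 CPM against 26.7 to 41.6 CPM, nearly all of it Pacsin1, with Ly6d and Klk1 at 0 in both genotypes. The endothelial list summed to 53.1 to 63.4 CPM against 87.1 to 117 CPM, with Esam at 0 in both. The part of these differences in the lower members was not tested.

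Once CD229 was gained, the loss of Trem2 no longer went with a general lower level. In CD229-positive CD11c-negative cells 7 members were higher and 9 lower in Trem2KO, with a median of 0.02 (26% of genes higher, 26.5% lower). Gbp7 was at 116, 94, 102 and 113 CPM in Trem2KO cells, against 23.5, 22 and 27.4 CPM in WT cells (2.12 ± 0.11, adjusted p = 3.75e-15). Gbp3 was at 27.9, 22, 26.3 and 23.8 CPM, against 9.27, 8.36 and 11.4 CPM (1.35 ± 0.12, adjusted p = 7.3e-10). At the CD229 step within Trem2KO cells Gbp7 fell by 0.29 ± 0.08 on the log2 scale (adjusted p = 0.00808), and Gbp3 had 0.03 ± 0.10 (adjusted p = 0.874). Marker lists also differed. The plasmacytoid list summed to 4.29 to 6.01 CPM in Trem2KO against 91.8 to 105 CPM in WT cells. The endothelial list summed to 26.4 to 29.8 CPM against 266 to 284 CPM, with Flt1 lower, Pecam1 and Cdh5 higher and Cldn5 at 0 in both genotypes. Their part in the result was not tested. Trem2KO baseline cells had 138, 146 and 138 CPM of Gbp7 and 22.1, 23.1 and 20.2 CPM of Gbp3.

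Oas2 went the same way in CD229-positive cells. It was at 242, 222, 311 and 286 CPM in Trem2KO cells, against 110, 109 and 121 CPM in WT cells (1.22 ± 0.20, adjusted p = 1.36e-05). Ifit3b (0.67), Slfn8 (0.62), Herc6 (0.24) and Parp14 (0.21) were higher as well. Ifi27l2a was at 35.9, 34.6, 49.1 and 41 CPM in Trem2KO cells, against 90, 98.1 and 85.5 CPM in WT cells (-1.19 ± 0.14), and Bst2 (-0.72), Oasl2 (-0.48) and Isg15 (-0.45, adjusted p = 0.0331) were lower too. Irf7 was at 104, 105, 134 and 150 CPM, against 130, 138 and 142 CPM, with overlapping groups (-0.16, adjusted p = 0.276). Reads of Ifit3 and Ifit3b, of Oasl1 and Oasl2 and of neighbouring Gbp and Slfn genes may be shared between near-identical copies, so the split within these pairs is uncertain.

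The CD229 step was tested against itself between the genotypes. In Trem2KO cells it raised 39 members and lowered 1, Gbp7 (median 0.99, 14.8% of genes higher, 12.7% lower). The border macrophage markers summed to 84.1 to 113 CPM in Trem2KO CD229-positive against 20.3 to 31.9 CPM in Trem2KO CD229-negative cells, with 7 of 8 called higher. By an interaction term in the same fit, the log2 fold change of the step was higher in Trem2KO than in WT cells for 24 members and lower for 0 (9.02% of genes higher, 5.77% lower). For all but 3 of the 24 this was a larger rise in Trem2KO; the other 3, Gbp7, Gbp3 and Slfn8, fell at this step in WT, and in Trem2KO their log2 fold changes were -0.29, 0.03 and 0.19. All 41 differences of log2 fold changes were above 0, with a median of 0.60 where that of all genes was 0.03. The difference was 1.52 ± 0.29 for Oas2 (adjusted p = 0.000672), 1.47 ± 0.14 for Gbp7 (adjusted p = 3.28e-08) and 0.94 ± 0.27 for Isg15 (adjusted p = 0.0169). Without the third WT CD229-negative library 12 members were called. The response to the diet itself differed for 4 members: it was smaller in Trem2KO for 3, among them Isg15, given above, and Bst2 (-0.74 ± 0.16, adjusted p = 0.00791), and Gbp7 differed by 0.49 ± 0.13 (a difference above 0 was called for 0.783% of genes and one below 0 for 3.17%). That count was 0 without the third Trem2KO baseline library, 2 without the third WT CD229-negative library and 10 with the replicate number as a block; DESeq2 gave 7 and no filter 8. The comparisons of CD229-negative cells, of the CD229 step and of the diet share libraries, so they are not separate evidence.

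Mef2a encodes a transcription factor of the MADS-box family. In Mef2aKO baseline cells 4 members were lower than in Cre baseline cells and 0 higher, with a median of -0.14 (1.76% of genes higher, 2.08% lower). Ifit3 was at 7.57, 8.42 and 7.04 CPM in Mef2aKO cells, against 10.1, 11.4 and 14.2 CPM in Cre cells (-0.63 ± 0.15, adjusted p = 0.00991), and Oasl2 at 9.55, 8.13 and 6.8 CPM, against 13.6, 13.9 and 12.7 CPM (-0.72 ± 0.19, adjusted p = 0.0266). Neither overlapped. Marker lists differed too, with CPM scaled in the experiment that holds the baseline CD229 split. The plasmacytoid list summed to 3.38 to 4.91 CPM in Mef2aKO against 5.78 to 12.3 CPM in Cre cells, and the endothelial list to 52.1 to 60.7 against 78.1 to 80.5 CPM. The border macrophage and microglial sums overlapped. The part of these lists in the result was not tested. The count of members called was 1 without the second Cre baseline library, 2 without the first Cre or the second or the third Mef2aKO baseline library, and 0 when only these 2 groups entered the fit.

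The difference was wider in the Clec7a-negative cells of the 5-week diet. There 32 members were lower in Mef2aKO cells and 0 higher, with a median of -0.75 (1.62% of genes higher, 3.91% lower). All 5 OAS genes were lower with a median of -1.62, as were all 4 IFIT genes, all 3 transcription factors, all 4 sensors and kinase and all 3 PARP genes. Oas2 was at 18.7 and 20.4 CPM in Mef2aKO cells, against 75.9, 69.8 and 101 CPM in Cre cells (-2.07 ± 0.25, adjusted p = 3.22e-07). Isg15 was at 5.9 and 3.99 CPM, against 9, 9.34 and 17.3 CPM (-1.28 ± 0.31, adjusted p = 0.00753). Irf7 was at 28 and 34.6 CPM, against 53.7, 54.3 and 73.2 CPM (-0.95 ± 0.18). In 38 of the 41 members both Mef2aKO libraries lay below all 3 Cre libraries, which 18.9% of all genes tested did.

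The GTPases were the exception in these cells: 2 of 5 were lower, and Gbp7 was at 90.6 and 93 CPM in Mef2aKO cells, inside the Cre range of 101, 76.2 and 77.8 CPM (0.11 ± 0.12, adjusted p = 0.708). Mx2 (-0.08) and Gbp3 (-0.07) were not called either. Clec7a itself was at 94.1 and 103 CPM in Mef2aKO cells, against 143, 177 and 160 CPM in Cre cells (-0.70, adjusted p = 0.000152), and the 8 border macrophage markers summed to 8.73 to 13.3 CPM against 22.1 to 32.8 CPM, with Cd163 at 0 in Mef2aKO. The plasmacytoid list summed to 6.69 to 7.5 CPM against 22.1 to 24.3 CPM, with Ly6d and Klk1 at 0 in both. The part of these genes in the lower members was not tested. Without the first of the 2 Mef2aKO libraries 21 members were called, against 32 with it.

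**Figure D4:**
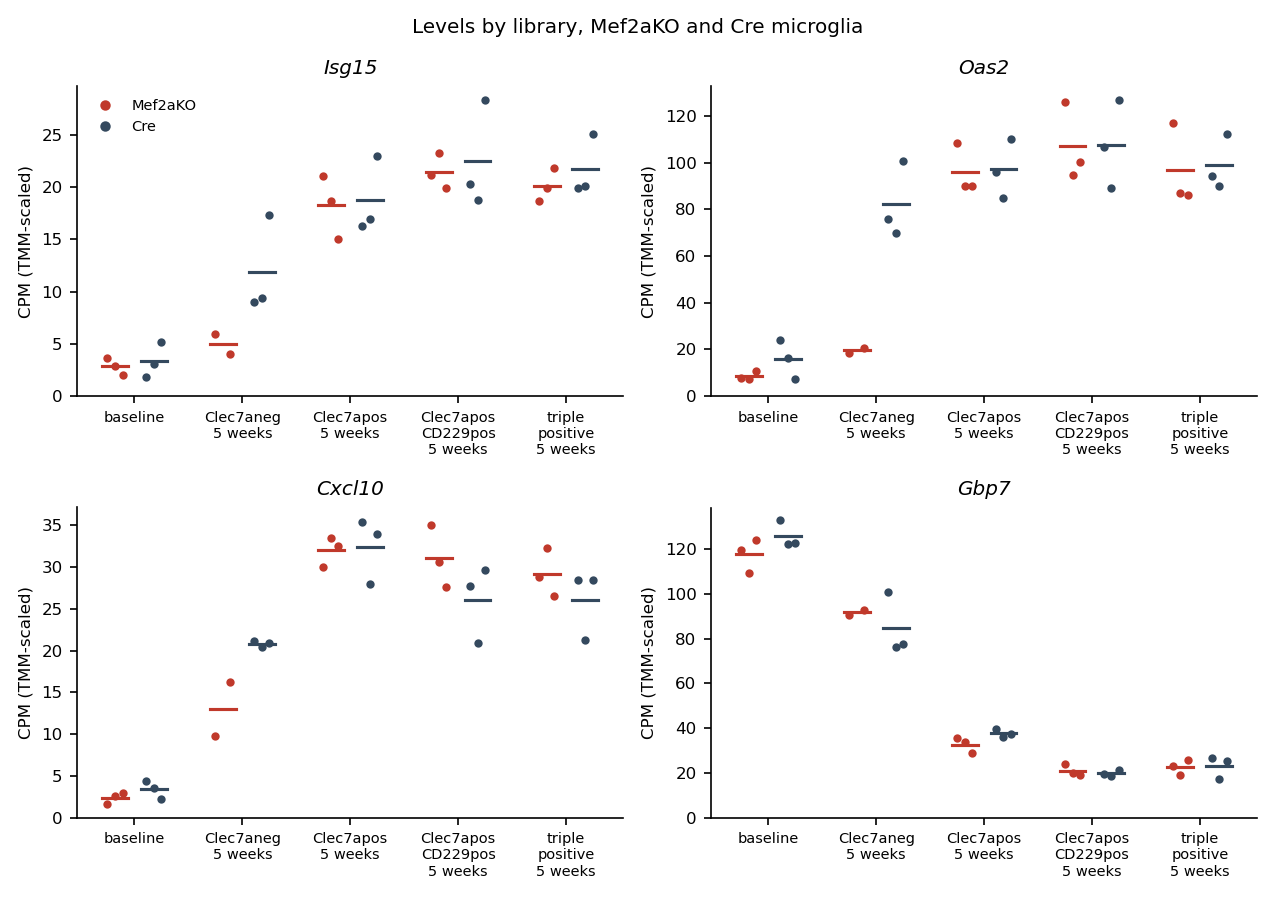
CPM (linear axes from 0) for Isg15, Oas2, Cxcl10 and Gbp7 in each 5-week library and the baseline libraries, with Mef2aKO (red) left of Cre (dark) and a bar at each group mean. The genotypes part in the Clec7a-negative cells for Isg15, Oas2 and Cxcl10, whereas the points mix in the Clec7a-positive fractions, and Gbp7 is lower in each Clec7a-positive fraction than in Clec7a-negative cells in both genotypes.

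In the Clec7a-positive fractions almost no member passed. In Clec7a-positive CD229-negative cells 0 of 41 were called by edgeR (2 at an unadjusted p under 0.05, 0 by DESeq2, 3.7% of genes in either direction). Isg15 was at 21.1, 18.7 and 15.1 CPM in Mef2aKO cells, against 16.3, 17 and 23 CPM in Cre cells, and Oas2 at 108, 89.9 and 90 CPM, against 96.2, 85.1 and 110 CPM. Both overlapped. In Clec7a-positive CD229-positive cells 0 were called (4 unadjusted, 1 by DESeq2, 4.9% of genes), and in the triple-positive cells 1 was lower (9 unadjusted, 2.34% of genes higher and 2.35% lower). With the replicate number as a block, by which these triple-positive libraries are paired, 3 were called. Leaving out the third Mef2aKO library gave 1 call in the first of these fractions, leaving out the second Cre or the first Mef2aKO library gave 1 in the second, and in the triple-positive cells the count was 2 without the second Cre library and 0 without the third. A p that misses the threshold does not show that the genotypes were alike. Other genes differed in Clec7a-positive CD229-negative cells. The border macrophage marker Mrc1 averaged 9.97 CPM in Mef2aKO and 61.7 CPM in Cre cells (-2.65). Cd163 (-3.26), F13a1 (-3.77), Lyve1 (-2.92) and Cbr2 (-1.83) were called lower too, and Pf4, Folr2 and Ms4a7 were not called. Itgax (-0.75) and Egr2 (-0.67) were also lower. The part of these genes in the result was not tested.

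Within Mef2aKO cells the Clec7a step raised 33 members and lowered 3, which were again Gbp7 (-1.49), Gbp3 (-1.01) and Slfn8 (-0.30), with a median of 1.11 (24.8% of genes higher, 21% lower). By an interaction term 17 members rose more at this step in Mef2aKO than in Cre cells, and no difference below 0 was called, with a median difference of 0.65 (1.7% of genes above 0, 0.242% below). All 5 OAS genes were among the 17. Oas2 had 2.07 ± 0.31 (adjusted p = 6.17e-05), Oasl2 1.17 ± 0.19 (adjusted p = 0.000203) and Irf7 1.03 ± 0.22 (adjusted p = 0.00622), and Isg15 did not pass (1.27 ± 0.38, adjusted p = 0.0796). Without the first Mef2aKO Clec7a-negative library 7 members were called. The test of this difference was added after its values had been seen. At the later steps 1 member changed at CD229, Gbp7 (-0.63 ± 0.13, adjusted p = 0.0162; 0.0227% of genes higher, 0.447% lower), and 2 at CD11c, Gbp2 upward (0.50 ± 0.15) and Ifi27l2a downward (-0.45 ± 0.13, with 5.14% of genes higher and 5.6% lower). Several single libraries end these calls: the CD229 count was 0 without any of 4 of the 6 libraries compared, and the CD11c count was 0 without any of 3 and 1 without another. The response to the diet was smaller in Mef2aKO for 4 members, among them Usp18 (-0.93 ± 0.23), Stat2 (-0.42 ± 0.10) and Oas1a (-1.35 ± 0.22, adjusted p = 0.000392), where 0.0682% of genes differed above 0 and 1.33% below. That count was 1 without the first Mef2aKO or the third Cre Clec7a-negative library, and 2 without the second Cre baseline library. It was 0 when only the compared groups entered the fit, 7 with DESeq2 and 17 with no filter. The comparisons of Clec7a-negative cells, of the Clec7a step and of the diet share libraries, so they are not separate evidence.

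Mef2aKO baseline cells split by CD229 gave values on a small base. Oas2 was at 21.3 and 37.5 CPM in CD229-positive cells, against 4.63, 4.04 and 10.2 CPM in CD229-negative cells, and Rsad2 at 5.32 and 12.3 CPM, against 1.04, 2.73 and 3.19 CPM. Isg15 was at 4.18 and 4 CPM, against 2.2, 1.9 and 1.78 CPM. The fractions did not overlap for these genes, and in 23 members both CD229-positive libraries lay above all CD229-negative ones, which 10.1% of all genes did. The 8 border macrophage markers lay apart in the same way: they summed to 89.4 to 184 CPM in CD229-positive against 20.3 to 44.3 CPM in CD229-negative libraries, each of the 8 was higher without overlap, and Ms4a7 passed the test. Their part in the result was not tested. The median log2 fold change was 0.72, yet 0 of 41 members passed edgeR's test after adjustment (0.15% of genes called). At an unadjusted p under 0.05 there were 22 members, and DESeq2 called 8. No share of all genes is given for these counts. The CD229-positive cells of the regular diet set against Cre baseline cells had 0 members called too (median 0.27, 1 by DESeq2, 1.59% of genes). The Cre baseline cells were not split by CD229, so gate and genotype cannot be told apart there. Some libraries of both CD229 fractions carry the PE150 tag, and no Cre baseline library does. Without the third CD229-negative or the first CD229-positive library 4 members were called between the fractions. Against Cre baseline cells 1 was called without that CD229-positive library or the third Cre library.

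Egr2 encodes a zinc-finger transcription factor. In Egr2KO baseline cells 0 of 41 members were called against Cre baseline cells (10 unadjusted, 1 by DESeq2, 0.182% of genes in either direction). Both Egr2KO baseline libraries carry the PE150 tag and no Cre baseline library does, so genotype and library type cannot be told apart there. Without the third Cre baseline library 2 were called. In CD229-negative cells at 6 weeks 0 were called (12 unadjusted, 0 by DESeq2, 0.19% of genes), with a median of 0.19.

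In CD229-positive CD11c-negative cells at 6 weeks 17 members were higher in Egr2KO and 0 lower, with a median of 0.35 (1.42% of genes higher, 1.05% lower). They included 4 of 5 OAS genes, all 4 sensors and kinase, 2 of 4 IFIT genes and, of the 3 transcription factors, Irf7. Irf7 was at 103, 94.9 and 104 CPM in Egr2KO cells, against 58.5, 57.4 and 53.4 CPM in Cre cells (0.84 ± 0.10, adjusted p = 1.31e-05). Oas3 was at 28.3, 25.2 and 36.9 CPM, against 11.1, 16.2 and 13.8 CPM (1.14 ± 0.23, adjusted p = 0.00903). Oasl2 was at 139, 126 and 156 CPM, against 85.2, 96.3 and 80.4 CPM (0.69 ± 0.10, adjusted p = 0.000325). The genotypes did not overlap for these 3 genes.

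No GTPase or PARP gene passed in this fraction, nor did Cxcl10, which was at 21.5, 16.5 and 19.4 CPM in Egr2KO cells, against 18.2, 19.8 and 19.4 CPM in Cre cells. Isg15 was at 15.9, 14 and 15.1 CPM, against 12, 8.83 and 7.5 CPM; its groups did not overlap but it missed the threshold (0.68, adjusted p = 0.0735). Among the PE150 libraries alone 13 members were called. The count was 7 without the third Egr2KO library, 9 without the third Cre library and 10 without the first Cre library. Monocyte markers summed to 13.2 to 17.1 CPM in Egr2KO cells against 23.1 to 31.2 CPM in Cre cells, and endothelial markers to 201 to 272 CPM against 93.5 to 186 CPM, of which Flt1 passed the test and Cldn5 was at 0 in both genotypes; their part in the result was not tested.

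**Figure D5:**
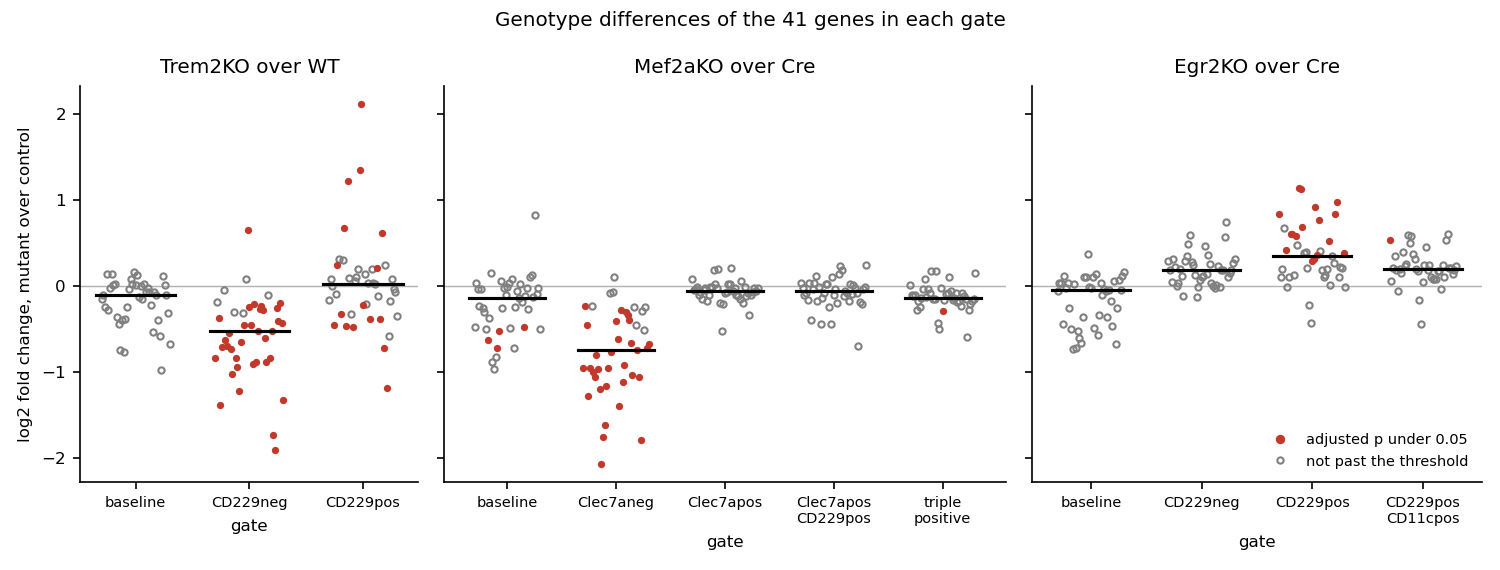
Log2 fold change of knockout over control in each fraction for the 41 genes, one panel per knockout (points, genes; bar, median; filled points have adjusted p under 0.05). The medians lie lowest in the Trem2KO CD229-negative cells (-0.53) and the Mef2aKO Clec7a-negative cells (-0.75) and are above 0 in the Egr2KO sorted fractions at 6 weeks.

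In CD229-positive CD11c-positive cells at 6 weeks 1 member was higher in Egr2KO, Irf7, at 115, 98.9 and 114 CPM, against 75.8, 75.8 and 75.9 CPM in Cre cells (0.53 ± 0.09, adjusted p = 0.00975; 0.121% of genes higher, 0.129% lower). At an unadjusted p under 0.05 there were 16 members, a threshold at which no share of all genes is given. The Irf7 call was lost (0 members) without any single Cre library of the fraction, or without the first or the third Egr2KO library. In the undivided cells at 5 weeks, with 2 libraries a group, 1 member was higher, Oas2, at 221 and 162 CPM in Egr2KO cells, against 86.2 and 89.1 CPM in Cre cells (1.12 ± 0.12, adjusted p = 0.000232; 0.299% of genes higher, 0.622% lower). Without the second Egr2KO library 12 members were called, and without either Cre library 2; with no filter 10 were called. Other genes differed there: Clec7a averaged 413 ± 4.47 CPM in Egr2KO and 605 ± 11.1 CPM in Cre cells, and Itgax 324 ± 53 and 582 ± 8.3 CPM (SD, n = 2 each, both called lower). The 8 border macrophage markers summed to 53 to 57.2 CPM in Egr2KO against 78.4 to 80.5 CPM in Cre cells, with Mrc1 and Cd163 called lower, and the part of these genes in the result was not tested. The CD229 step within Egr2KO cells raised 28 members and lowered Gbp3 and Gbp7 (median 0.64, 14.7% of genes higher, 12.8% lower), and the CD11c step raised Usp18 and Slfn5 and lowered the same 2 GTPases (5.44% of genes higher, 6.25% lower). The CD11c count was 2 without the second CD11c-negative or the third CD11c-positive library, and 2 among the PE150 libraries alone. A test of the difference between the genotypes found no member for the CD229 step (0 called, 6 unadjusted, 0% of genes) and none for the diet (0 called, 11 unadjusted, 1 by DESeq2, 0.0303% of genes); for the diet 2 members were called without the third Cre baseline library and 1 without the second Egr2KO baseline library.

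The type I interferon genes themselves were close to absent from the counts: the 18 listed summed to between 0 and 0.662 CPM per library, 14 to 18 of them were at 0 in each group, and none passed the low-count filter. The libraries hold cells of the microglial gate, so interferon made by other cells is outside the measurement. The receptor genes Ifnar1 and Ifnar2 and the kinase genes Jak1 and Tyk2 had log2 fold changes between -0.14 and 0.15 over the 6 diet comparisons, and the lowest adjusted p was 0.0648 in edgeR's test (Jak1 in Cre cells at 5 weeks). Ifnar1 was at 240, 243 and 247 CPM in WT CD229-negative cells, against 236, 248 and 230 CPM at baseline, and Ifnar2 at 207, 210 and 209 CPM, against 209, 197 and 206 CPM; both overlapped.

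Of the 15 sensing and induction genes tested, 3 rose on the diet in WT cells (Ddx58, the RNA sensor RIG-I, Ikbke, a kinase that activates interferon regulatory factors, and Irf8) and 2 fell (Tlr3 and Tlr9), shares close to the 18.8% and 11.7% of all genes. At the WT CD229 step 2 of them rose and 9 fell, among them Tmem173 (STING), Mavs, Myd88 and Tbk1, where 24.6% of all genes were higher and 24.2% lower. Of the 5 genes tested from a list for interferon gamma, 1 rose on the diet in WT cells, the chemokine Cxcl9, where 18.8% of all genes were higher. A mixed list of 8 feedback and interferon-induced genes was also read. On the diet in WT cells 3 of them rose (Ptpn6, Isg20 and Adar) and 1 fell (Pias1), where 18.8% of all genes were higher and 11.7% lower. The median log2 fold change of the list was -0.12. Adar, an interferon-induced RNA-editing enzyme named here after its values were seen, was higher at all 6 diet comparisons and lower in Trem2KO CD229-negative and Mef2aKO Clec7a-negative cells.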

How the data were processed

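RNA of sorted cells was sequenced as polyA-selected, strand-marking dUTP libraries, per the labels' protocols. Reads were processed with fastp 0.20.0, STAR 2.7.0f and HOMER 4.11 on mm10 (GRCm38), and DESeq2 is named, per the submitters' processing notes. The authors deposited raw read counts per gene, which were used, and TPM tables, which were not. Per-sample columns mapped to no sample numbered 0. Total counts ran from 4387075 to 13972985 per library.

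The libraries form 5 experiments of 23, 29, 11, 23 and 4 libraries, each fitted whole with edgeR 4.0.16 (R 4.3.3): TMM scaling, filterByExpr, quasi-likelihood tests, and Benjamini-Hochberg adjustment over all genes tested, with a call at an adjusted p under 0.05. The WT and Trem2KO tables were joined on genes with identical counts in the 3 shared WT baseline libraries (24910 of 25124 genes, 214 left out, no member among them); 1560 genes list different transcripts. CPM was scaled within an experiment, so the 3 Cre baseline libraries shared by 3 experiments have slightly different values in each. The 34 comparisons and 6 differences of effects share controls. Of the differences, those of the Clec7a step (Mef2aKO) and of the CD229 step (Egr2KO) were added after their values had been seen. The members, gene lists and tests were chosen with earlier results of these data known. The 8 panel genes are given in the main comparisons, with the 3 highest and 3 lowest members and any member called against the majority; genes outside that rule (such as Oas2) were chosen after their values were seen. One gene of the signalling list is not reported here.

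Same-numbered libraries were paired where every correlation of their deviations from the group means was above 0.1 over at least 3 pairs. This held for the CD229 step in Trem2KO (0.14 to 0.42), Mef2aKO at 5 weeks (0.16 to 0.21), Cre at 6 weeks (0.36 to 0.5) and Egr2KO (0.14 to 0.27), the CD11c step in Cre at 6 weeks (0.31 to 0.48), and the genotype comparisons in Mef2aKO triple-positive (0.16 to 0.22) and Egr2KO CD229-positive cells (0.24 to 0.59); at 6 weeks the number coincides with the PE150 tag. Nothing says that numbers mark one animal or day, and p-values measure the spread between pools. Replicate pairs differed beyond sampling noise (chi-square per degree of freedom 1.56 to 16.1). On simulated counts the test recovered 84 to 91 of 100 genes changed 2-fold and 98 to 100 of 100 changed 4-fold, and called 4 to 11 unchanged genes. Changes were planted only in genes above a minimum mean count, so these rates do not cover members with few reads. The simulated libraries were independent, with no pairing, deviating library or PE150 effect. Alternatives were DESeq2 1.42.0, RLE scaling, no filter, the compared groups alone, replicate blocks, the PE150 tag, and each library left out.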

Additional observations from a re-analysis of the deposited data

Results flagged for a closer look

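Effects differed between genotypes, by interaction terms in edgeR's quasi-likelihood test, for 24 members at the CD229 step (Trem2KO minus WT), 4 for the 4-week diet (Trem2KO minus WT), 4 for the 5-week diet (Mef2aKO minus Cre) and 17 at the Clec7a step (Mef2aKO minus Cre). At the CD229 step the differences in log2 fold change were 1.52 for Oas2, 1.47 for Gbp7, 1.41 for Ifit3b, 0.98 for Cxcl10, 0.94 for Isg15, 0.85 for Ifit3, 0.74 for Oasl2, 0.68 for Irf7, 0.61 for Usp18 and 0.37 for Stat2. For the 4-week diet they were 0.49 for Gbp7, -0.74 for Bst2 and -1.53 for Isg15. For the 5-week diet they were -0.42 for Stat2, -0.93 for Usp18 and -1.35 for Oas1a. At the Clec7a step they were 2.07 for Oas2, 1.81 for Oasl1, 1.75 for Oas3, 1.17 for Oasl2, 1.03 for Irf7, 0.85 for Usp18, 0.78 for Ifit3 and 0.43 for Stat2.

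A lone library stood away from its 3 partners in 5 of 82 sets of 4 Trem2KO libraries, where chance gives about 1 in 20. In CD229-negative cells Oasl2 was at 34.81 CPM in library 2, and Mx1 at 46.35 CPM and Dhx58 at 58.56 CPM in library 4. In CD229-positive cells Ifit1 was at 56.39 CPM in library 4 and Xaf1 at 60.7 CPM in library 3. Smaller groups were not screened. In one of them, Mef2aKO baseline cells, Xaf1 was at 55.2 CPM in library 3, against 13.93 and 17.03 CPM in its partners (scaled in the 5-week experiment).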

How the results depend on the processing

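Of 40 counts of members called, 14 stayed within 1.5 times of the reported count in every alternative. Over settings other than leaving out a library, 198 counts stayed within that range and 49 did not. Among the 137 called results of the 8 panel genes, 1683 of 1787 alternatives kept the call, 104 lost it and 0 reversed. The cause of the changes below was not tested. With DESeq2 the counts were 5 for the CD229 step in Cre at 5 weeks, 8 for the Mef2aKO baseline CD229 fractions, 1 each for the Egr2KO baseline, the Egr2KO diet difference, the Mef2aKO CD229-positive baseline and the Mef2aKO Clec7a-positive CD229-positive cells, 2 for Mef2aKO triple-positive cells, and 7 for each of the Mef2aKO and Trem2KO diet differences. With no filter they were 10 for the CD11c step in WT, the CD229 step in Cre at 5 weeks and the undivided cells, 12 for the baseline CD229 fractions, 2 for the Egr2KO and Trem2KO baselines, 1 for Egr2KO CD229-negative and Mef2aKO Clec7a-positive cells, 7 for Egr2KO CD11c-positive cells, 4, 17 and 8 for the Egr2KO, Mef2aKO and Trem2KO diet differences, 9 for the Mef2aKO baseline, 4 for its CD229-positive fraction against Cre, and 3 and 4 for the Clec7a-positive CD229-positive and triple-positive cells. With the compared groups alone they were 15, 1, 5, 0, 0, 1, 2 and 5 (CD11c step in WT; baseline CD229 fractions; Egr2KO CD11c-positive; Mef2aKO diet difference; Mef2aKO baseline; and the 3 Mef2aKO Clec7a-positive fractions in order). The CD11c step in Egr2KO had 2 among PE150 libraries, and the baseline CD229 fractions 5 with the PE150 covariate and 2 with RLE scaling. The longer promoter motif lay in 11 members against 18.

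With the replicate number as a block, the counts were 5 for the CD229 step in Cre at 5 weeks, 1 for the baseline CD229 fractions, 8 for the undivided cells, 1 and 10 for the Egr2KO and Trem2KO diet differences, 1 for Mef2aKO Clec7a-positive and 3 for triple-positive cells. Nested in genotype and diet, the block gave 9, 20, 4 and 12 for the CD11c step in Cre at 5 and 6 weeks, Mef2aKO and WT, 11 for the CD229 step in Cre at 5 weeks and 9 for the baseline fractions. Where the numbers pair libraries the block changed no other count by over 1.5 times.

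Leaving out each library in turn gave 21 to 36 for Trem2KO CD229-negative, 21 to 31 for Mef2aKO Clec7a-negative and 7 to 16 for Egr2KO CD229-positive cells. It gave 12 to 30 for the CD229 step difference and 0 to 6 for the diet difference (Trem2KO), 7 to 21 for the Clec7a step difference and 1 to 6 for the diet difference (Mef2aKO), and 0 to 2 for the diet difference (Egr2KO). The CD11c step gave 3 to 6 in WT, 3 to 6 in Cre at 5 weeks, 0 to 2 in Mef2aKO and 2 to 4 in Egr2KO, and the CD229 step 1 to 4 in Cre and 0 to 1 in Mef2aKO at 5 weeks. The baseline comparisons gave 0 to 1 (Trem2KO), 1 to 3 (Mef2aKO), 0 to 4 (its CD229 fractions), 0 to 1 (CD229-positive against Cre) and 0 to 2 (Egr2KO). The Mef2aKO Clec7a-positive fractions gave 0 to 1, 0 to 1 and 0 to 2, Egr2KO CD11c-positive cells 0 to 1 and undivided cells 1 to 12. A group of 2 libraries with 1 left out is assumed to vary like the other groups. Members under about 1 CPM at baseline, such as Ifi44 and Oas3, rest on few reads there, so their fold changes are imprecise.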
